A study of Homo sapiens with 12 samples.

Results

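The mitosis and G2-M genes are 54 genes whose products drive cells through G2 and mitosis, measured here in vemurafenib-resistant and sensitive cells of A375 and SKMel28, which are long-established lines from human melanomas. The 54 genes were given as a list of symbols, and all 54 were found among the 26499 gene symbols of the count tables. All 54 passed the filter on low counts, which left 15506 genes for testing. Resistant A375 and resistant SKMel28 cells were kept in vemurafenib at 1 µmol/L, while no drug is named for sensitive A375 and sensitive SKMel28 cells, so resistance itself and exposure to the drug cannot be told apart. All groups grew in DMEM medium with fetal bovine serum, and each group held 3 libraries of poly(A)-selected RNA. Vemurafenib inhibits the mutant BRAF kinase, and the study set out to learn what the IGF1 pathway contributes to resistance to drugs against BRAF and MEK. Whether the libraries within a group were grown as separate cultures is not in the labels, nor is whether a resistant line was 1 clone, so the p-values reflect the spread of these libraries alone, which may be technical.

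Entry into mitosis is driven by CDK1 bound to B-type cyclins, and the cell leaves mitosis when the anaphase-promoting complex, a ubiquitin ligase, marks cyclin B and securin for destruction. The spindle checkpoint holds that ligase back until every chromosome is attached to the spindle. Transcripts of these genes are low in G1 and high in G2 and mitosis, in a wave set by the MuvB complex with the transcription factors B-MYB and FOXM1, and many of the promoters carry a short element called the cell cycle genes homology region (CHR) near a CCAAT box. The transcripts are widely read as signs of proliferation in melanoma and other tumours. In bulk RNA, fewer cells in G2 and mitosis and less of a transcript in each such cell cannot be told apart.

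Each library held 28496518 to 37721363 reads assigned to genes, so a CPM of 1 stood for at least 28.5 reads. CPM is the count relative to the library size after TMM scaling, which evens out differences in composition. The 8 melanocyte lineage markers summed to 10925 to 11077 CPM in resistant SKMel28 cells and 7268 to 7708 CPM in sensitive ones. PMEL made up most of these sums, at 6114 CPM in resistant and 4545 CPM in sensitive cells, and TYRP1 stood at 2037 and 218 CPM. The markers did not move together in SKMel28. SOX10 was lower in resistant cells (569 against 722 CPM), as were S100B (185 against 465 CPM) and DCT (218 against 266 CPM), and the other 5 were higher. In A375 they summed to 31.3 to 33.7 CPM in resistant cells and 373 to 383 CPM in sensitive cells, TYR was at 0 in both groups, and SOX10 stood at 0.138 CPM in resistant against 325 CPM in sensitive cells. The 6 immune markers summed to 758.6 to 764 CPM in resistant and 207 to 219.9 CPM in sensitive SKMel28 cells and to 57.8 to 62.2 CPM in resistant and 38.4 to 43.1 CPM in sensitive A375 cells. CD68 made up most of these sums, with 761 CPM in resistant and 211 CPM in sensitive SKMel28 cells and 57.5 CPM in resistant and 31.0 CPM in sensitive A375 cells. LYZ was lower in resistant cells, at 0.051 CPM in resistant and 1.30 CPM in sensitive SKMel28 cells and at 2.07 CPM in resistant and 8.66 CPM in sensitive A375 cells. CD3E was at 0 in every group and PTPRC at 0.0854 CPM or less. The share of reads from mitochondrial genes was 6.82% to 7.13% in resistant and 4.41% to 4.67% in sensitive SKMel28 libraries, and 2.11% to 2.27% in resistant and 1.85% to 1.99% in sensitive A375 libraries. The part of these differences in the results below was not tested.

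The promoters show what most of these genes have in common in sequence. RefSeq promoter windows of 300 bases (250 before to 50 after the start, GRCh38.p14) were at hand for 46 of the 54 genes, in 58 windows. The letters TTTGAA or TTCGAA of the CHR, on either strand, stood in 38 of the 58 windows (65.5%), against 16.4% of the 35116 windows of all genes. CCAAT, on either strand, stood in 67.2% of the members' windows and 34.6% of all windows, and both motifs in 29 of the 58 windows and in 6.38% of all windows. The 120 bases before the start are printed for 7 genes with different patterns of change over the lines, 5′ to 3′ on the gene's strand, in lower case with matches to either motif in capitals. CDC20, ESPL1 and KIF2C were lower in resistant cells of both lines, KIF11 and MKI67 went opposite ways, and KIF4A and CEP55 changed in SKMel28 but were not called in A375.
CDC20 (chr1:43358861-43358980, plus strand): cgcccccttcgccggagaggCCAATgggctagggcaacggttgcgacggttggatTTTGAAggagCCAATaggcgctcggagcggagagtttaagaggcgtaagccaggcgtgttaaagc
ESPL1 (chr12:53268179-53268298, plus strand): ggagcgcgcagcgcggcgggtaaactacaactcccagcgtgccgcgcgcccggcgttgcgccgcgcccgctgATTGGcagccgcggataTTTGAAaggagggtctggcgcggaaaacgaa
KIF2C (chr1:44739717-44739836, plus strand): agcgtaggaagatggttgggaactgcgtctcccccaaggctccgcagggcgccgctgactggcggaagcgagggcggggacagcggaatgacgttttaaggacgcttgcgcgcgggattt
KIF11 (chr10:92593010-92593129, plus strand): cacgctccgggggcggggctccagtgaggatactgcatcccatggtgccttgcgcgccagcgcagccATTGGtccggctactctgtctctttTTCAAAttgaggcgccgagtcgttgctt
MKI67 (chr10:128126424-128126543, minus strand): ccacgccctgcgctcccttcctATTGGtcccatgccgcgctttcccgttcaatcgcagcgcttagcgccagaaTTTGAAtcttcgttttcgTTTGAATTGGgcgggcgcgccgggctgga
KIF4A (chrX:70289984-70290103, plus strand): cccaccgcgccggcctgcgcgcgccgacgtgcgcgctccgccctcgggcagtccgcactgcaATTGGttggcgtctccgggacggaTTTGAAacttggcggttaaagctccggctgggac
CEP55 (chr10:93496492-93496611, plus strand): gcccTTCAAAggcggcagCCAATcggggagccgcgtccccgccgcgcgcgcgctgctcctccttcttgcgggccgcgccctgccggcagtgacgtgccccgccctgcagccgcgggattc
The KIF2C stretch held neither motif, and the MKI67 stretch held 2 CHR matches, of which 1 shares a base with a CCAAT on the other strand, where it appears as its reverse complement. The KIF11 match, TTCAAA, is TTTGAA on the other strand. The CHR match lay close to the start in ESPL1, KIF11, MKI67 and KIF4A and farther away in CDC20 and CEP55. In A375, 1 of the 35 genes with the letters was called higher and 18 lower, and 1 of the 11 without was called higher and 6 lower, beside 25% higher and 26.3% lower of all genes tested. Genes without a window are outside this split, so it leaves out most of the A375 rises. They are BIRC5, FOXM1 and BUB3, called higher in A375, UBE2C, AURKA and TPX2, called lower there, and CDCA2 and TTK, not called there. In SKMel28, 14 of the 35 were called higher and 13 lower, and 4 of the 11 were called higher and 5 lower, beside 34.2% and 35.8% of all genes. A match is a run of letters, not a measured binding site.

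Taken as 1 sum, the transcripts of the 54 genes were slightly lower in resistant A375 cells and overlapped between the SKMel28 groups. They summed to 6788, 6754 and 6762 CPM in the resistant A375 libraries and to 7525, 7559 and 7401 CPM in the sensitive ones. Every resistant A375 library lay below every sensitive one. In SKMel28 the sums were 7131, 6861 and 6868 CPM in the resistant libraries, against 6819, 6906 and 6837 CPM in the sensitive ones, and the groups overlapped. The median log2 fold change of the 54 genes was -0.09 in A375 and -0.02 in SKMel28, beside 0 and -0.01 for all genes tested. The A375 median was -0.053 without resistant replicate 2, where that of all genes was 0.023, and -0.058 with DESeq2. The SKMel28 median lay so close to 0 that leaving out 1 library moved it between -0.0489, without resistant replicate 1, and -0.0041, without sensitive replicate 3. Leaving out any library other than A375 sensitive replicate 3 or SKMel28 sensitive replicate 2 moved it by over 1.5 times. The genes varied little between libraries of a group, with a median coefficient of variation of 2.30% in resistant and 2.20% in sensitive A375 cells and of 3.76% in resistant and 3.77% in sensitive SKMel28 cells. For the 8082 genes at 10 CPM or more it was 3.55%, 3.26%, 3.68% and 4.03% in the same order.

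**Figure D1:**
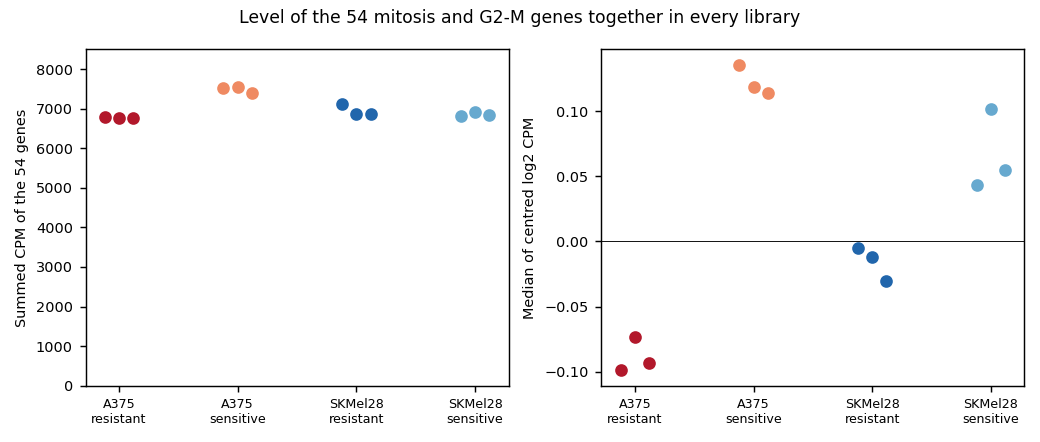
The left panel plots the summed CPM of the 54 genes in each library, and the right panel the median over the 54 genes of log2 CPM centred on each gene's mean over all libraries (log2 scale). Points are libraries, 3 per group. The 3 resistant A375 libraries lie near 6768 CPM and the 3 sensitive ones near 7495 CPM, while the SKMel28 groups, with means of 6953 CPM in resistant and 6854 CPM in sensitive cells, overlap in the left panel. In the right panel the resistant libraries lie below the sensitive ones in both lines, at means of -0.09 and 0.12 in A375 and -0.02 and 0.07 in SKMel28. The centring uses the libraries of both lines, so these gaps are not the median log2 fold changes within a line. Those were -0.09 in A375 and -0.02 in SKMel28.

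Within these sums the genes moved in different directions. In A375, 5 of the 54 genes were higher and 27 lower in resistant cells (edgeR, two-sided, threshold 0.05 on p-values adjusted over the whole table by Benjamini-Hochberg). Of all genes, 25% were called higher and 26.3% lower. Under DESeq2, with its own scaling, the split was 7 higher and 19 lower, and 21 genes were lower with its size factors in edgeR. Of all genes, DESeq2 called 4242 higher and 3520 lower, against 3882 and 4077 in the main fit. With DESeq2, CCNA2, BUB1B, KIF23, CENPF, SPC25, NCAPH, SMC2 and SMC4 lost the A375 call, and BUB1 and CDCA3 were called higher. In SKMel28, 21 of the 54 genes were higher and 21 lower in resistant cells, against a background of 34.2% and 35.8%. The A375 share of lower genes was therefore above its background and the share of higher genes below it, while both SKMel28 shares were close to theirs. Resistant and sensitive libraries did not overlap for 8 genes higher and 30 lower in A375, where 57.9% of all genes did not overlap, and for 21 higher and 21 lower in SKMel28, where 71.1% did not.

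**Figure D2:**
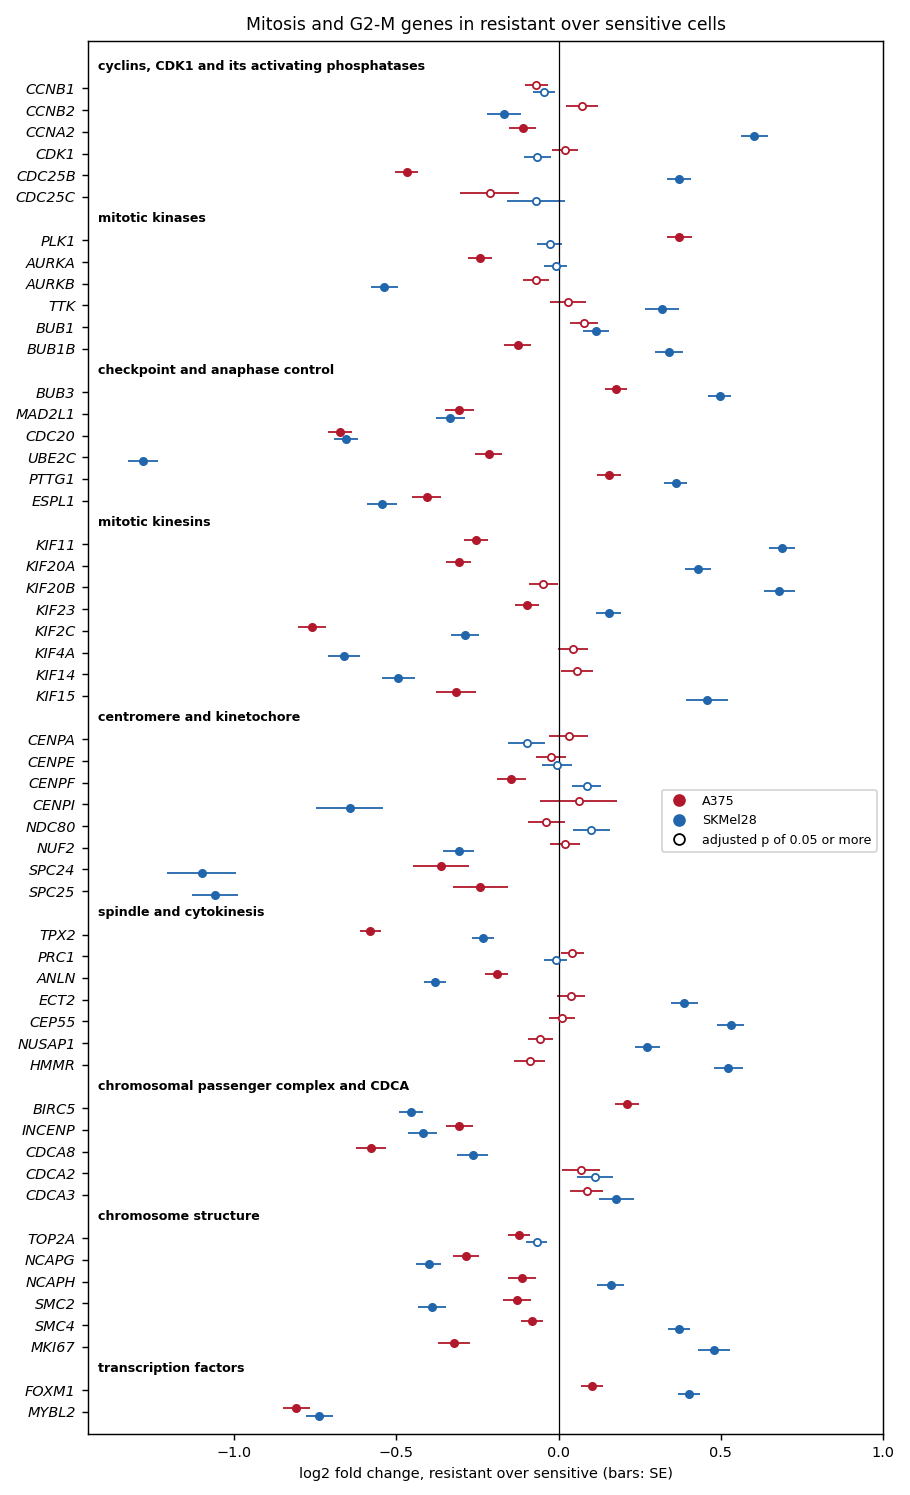
Log2 fold change of each of the 54 genes in resistant over sensitive cells, by role, in A375 (red) and SKMel28 (blue), with bars of 1 SE from the edgeR fit of 3 libraries per group. Filled points passed an adjusted p of 0.05 and open points did not. Changes in A375 lie between -0.81 for MYBL2 and 0.37 for PLK1, and those in SKMel28 between -1.28 for UBE2C and 0.69 for KIF11.

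The core of mitotic entry was covered by 6 genes, those of the cyclins, CDK1 and its activating phosphatases. In A375 the calls were 0 rises and 2 falls, against a background of 25% and 26.3%. The SKMel28 calls were 2 rises and 1 fall, against 34.2% and 35.8%. CCNA2 and CDC25B were called in both lines, CCNB2 in SKMel28, and CCNB1, CDK1 and CDC25C in neither. CCNB1, which encodes cyclin B1, had 244, 243 and 239 CPM in the resistant A375 libraries, against 253, 258 and 250.1 CPM in the sensitive ones, and 213, 207 and 213 CPM in the resistant SKMel28 libraries, against 209.7, 217 and 228 CPM in the sensitive ones. The A375 groups did not overlap and the SKMel28 groups did, and neither change passed the test (log2 fold change -0.07 ± 0.03 SE, adjusted p = 0.0958, and -0.05 ± 0.04, adjusted p = 0.251). CDK1, its catalytic partner, stood at 117, 125 and 121 CPM in resistant and 119.8, 124 and 114 CPM in sensitive A375 libraries. Its values were 121, 124 and 123 CPM in resistant and 126, 134 and 125 CPM in sensitive SKMel28 libraries. The CDK1 groups overlapped in A375 and lay just apart in SKMel28, with fold changes of 0.02 ± 0.04 and -0.07 ± 0.04 that did not pass the test (adjusted p = 0.699 and 0.15). CCNB2, encoding the other main B-type cyclin, fell in SKMel28 (-0.17 ± 0.05, adjusted p = 0.00465) and was at 0.07 in A375, not called. Without sensitive SKMel28 replicate 2 the CCNB2 value was -0.10 with an adjusted p of 0.122.

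CCNA2 encodes cyclin A2, which acts in S phase and early mitosis. It had 109, 112 and 109.9 CPM in resistant A375 libraries, against 121, 118 and 118 CPM in sensitive ones, and 132, 131 and 126 CPM in resistant SKMel28 libraries, against 87.3, 80.3 and 88.3 CPM in sensitive ones. It was lower in every resistant A375 library and higher in every resistant SKMel28 library, by -0.11 ± 0.04 (adjusted p = 0.0195) and 0.60 ± 0.04 (adjusted p = 4.46e-17). The A375 call for CCNA2 was lost when any 1 of the resistant libraries or sensitive replicate 1 was left out, with adjusted p between 0.0678 and 0.225. CDC25B, a phosphatase that activates CDK1, also went opposite ways, to 178 ± 5.50 CPM in resistant against 246 ± 3.52 CPM in sensitive A375 cells (SD, n = 3) and to 220.4 ± 1.29 CPM in resistant against 170.4 ± 7.55 CPM in sensitive SKMel28 cells. Its fold changes were -0.47 ± 0.04 and 0.37 ± 0.04, and the groups did not overlap in either line. CDC25C, the related phosphatase of mitotic entry, was low, with 10.3, 10.1 and 11.6 CPM in resistant and 11.7, 13.2 and 12.04 CPM in sensitive A375 libraries, and 15.05, 14.2 and 15.7 CPM in resistant and 15.6, 15.2 and 16.4 CPM in sensitive SKMel28 libraries. The resistant A375 libraries were all below the sensitive ones and the SKMel28 groups overlapped. The CDC25C change of -0.21 ± 0.09 in A375 missed the threshold (adjusted p = 0.0502), as did -0.07 ± 0.09 in SKMel28 (adjusted p = 0.493).

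Among the mitotic kinases, PLK1 rose in A375 and AURKB fell in SKMel28, each with no call in the other line. PLK1, polo-like kinase 1, which acts on centrosomes, kinetochores and mitotic entry, had 278, 274 and 277 CPM in resistant A375 libraries, against 208, 219 and 213 CPM in sensitive ones. In SKMel28 it had 157, 148 and 145 CPM in resistant and 145, 153 and 161 CPM in sensitive libraries. All resistant A375 libraries lay above all sensitive ones, a rise of 0.37 ± 0.04 (adjusted p = 1.47e-11) that was the largest of the 54 in that line, while the SKMel28 groups overlapped at -0.03 ± 0.04 (adjusted p = 0.549). The difference between the lines passed its own test (0.40 ± 0.05, adjusted p = 1.41e-08). AURKB, the kinase of the chromosomal passenger complex, had 92.5, 91.3 and 90.0 CPM in resistant and 96.1, 95.5 and 95.7 CPM in sensitive A375 libraries, and 65.7, 68.0 and 70.0 CPM in resistant and 97.9, 97.9 and 99.8 CPM in sensitive SKMel28 libraries. Resistant libraries lay below sensitive ones in both lines, by -0.07 ± 0.04 in A375 (adjusted p = 0.159, not called) and -0.54 ± 0.04 in SKMel28 (adjusted p = 2.75e-15).

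AURKA, the aurora kinase of centrosomes and spindle poles, had 110.4, 113 and 114 CPM in resistant and 127, 135 and 136 CPM in sensitive A375 libraries, and 185, 177 and 182 CPM in resistant and 182, 183 and 183 CPM in sensitive SKMel28 libraries. It fell in A375 with no overlap (-0.24 ± 0.04, adjusted p = 4.66e-07) and overlapped in SKMel28 (-0.01 ± 0.04, adjusted p = 0.845). BUB1, a kinetochore kinase of the spindle checkpoint, had 76.4, 73.7 and 76.9 CPM in resistant and 72.3, 74.3 and 68.2 CPM in sensitive A375 libraries, and 161, 148 and 148 CPM in resistant and 142, 138 and 143 CPM in sensitive SKMel28 libraries. It overlapped in A375 (0.08 ± 0.04, adjusted p = 0.131) and rose a little in SKMel28 (0.12 ± 0.04, adjusted p = 0.0122), where leaving out resistant replicate 1 gave 0.07 with an adjusted p of 0.129. TTK, the checkpoint kinase also called MPS1, rose in SKMel28 (0.32 ± 0.05) and was at 0.03 in A375, not called. BUB1B, which encodes the checkpoint protein BUBR1, fell in A375 (-0.13 ± 0.04) and rose in SKMel28 (0.34 ± 0.04). Its A375 call was lost without any 1 of the resistant libraries, with adjusted p between 0.0795 and 0.153.

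The genes of the checkpoint effector and of anaphase changed in both lines. All 6 passed the test in both lines, each in the same direction, 4 lower and 2 higher. Of all genes tested, 9.83% were lower in both lines and 8.65% higher in both. CDC20, which activates the anaphase-promoting complex and is the protein the checkpoint holds back, had 179.9, 179 and 171 CPM in resistant A375 libraries, against 287, 280.5 and 279 CPM in sensitive ones, and 134, 134 and 138 CPM in resistant SKMel28 libraries, against 205, 213 and 222 CPM in sensitive ones. Resistant and sensitive libraries were far apart in both lines, and the falls of -0.67 ± 0.04 and -0.66 ± 0.04 passed the test (adjusted p = 2.67e-20 and 4.21e-20, difference between lines -0.02 ± 0.05, adjusted p = 0.79). UBE2C, the ubiquitin-conjugating enzyme that works with that complex, had 149.7, 142 and 139.5 CPM in resistant and 164, 171 and 165 CPM in sensitive A375 libraries, and 40.6, 45.9 and 46.2 CPM in resistant and 109.8, 105 and 107 CPM in sensitive SKMel28 libraries. No groups overlapped, and the fall was -0.22 ± 0.04 in A375 (adjusted p = 2.37e-05) and -1.28 ± 0.05 in SKMel28 (adjusted p = 5.71e-27). The difference of 1.07 ± 0.06 between these falls passed the test (adjusted p = 2.86e-19). MAD2L1, which encodes the checkpoint protein MAD2, fell in A375 (-0.31 ± 0.04) and SKMel28 (-0.33 ± 0.05).

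Securin and separase, the inhibitor and the enzyme of sister chromatid release, went opposite ways in both lines. PTTG1, encoding securin, had 132, 133 and 126 CPM in resistant and 121, 114 and 114 CPM in sensitive A375 libraries, and 234, 235 and 246 CPM in resistant and 186, 186 and 184 CPM in sensitive SKMel28 libraries. Every resistant library lay above every sensitive one in its line (0.16 ± 0.04, adjusted p = 0.000509, and 0.36 ± 0.04, adjusted p = 7.18e-12). PTTG1 has near-identical copies, among them PTTG2 and PTTG3P, so its counts are uncertain. ESPL1, encoding separase, fell to 76.6 ± 1.87 CPM in resistant against 102 ± 2.997 CPM in sensitive A375 cells and to 66.5 ± 3.29 CPM in resistant against 97.0 ± 4.60 CPM in sensitive SKMel28 cells (SD, n = 3), or -0.41 ± 0.04 and -0.55 ± 0.05. BUB3, the checkpoint protein that brings BUB1 and BUBR1 to kinetochores, had 248.8, 249.96 and 240.1 CPM in resistant and 221, 215 and 217 CPM in sensitive A375 libraries, and 185, 188 and 192 CPM in resistant and 137, 131 and 133 CPM in sensitive SKMel28 libraries. It rose without overlap in both lines, by 0.18 ± 0.03 and 0.50 ± 0.04 (adjusted p = 2.88e-05 and 2.02e-16).

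**Figure D3:**
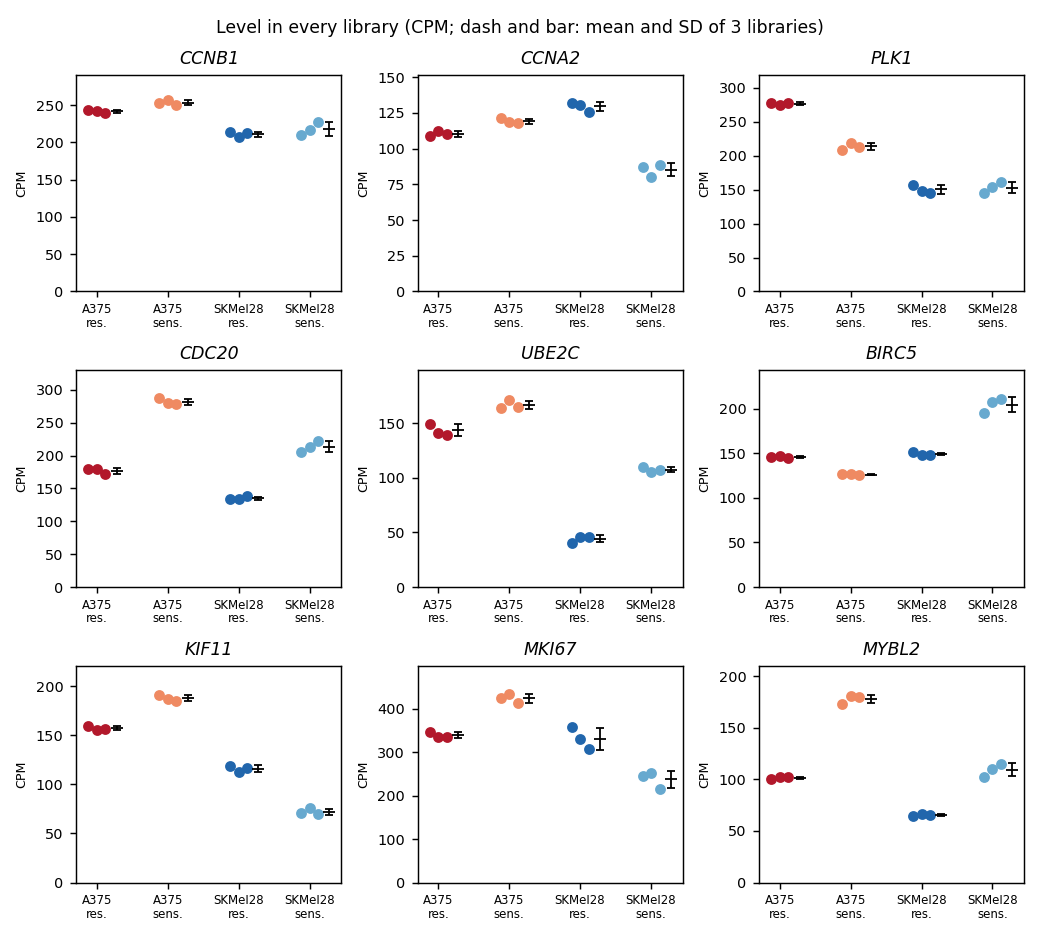
Level of 9 genes in every library, in CPM on axes that start at 0. Colours mark the 4 groups, points are the 3 libraries of each, and the dash with its bar is the mean and SD. CDC20, UBE2C and MYBL2 are lower in resistant cells of both lines, KIF11, CCNA2 and MKI67 are lower in resistant A375 and higher in resistant SKMel28 cells, and PLK1 is higher in resistant A375 cells and overlaps between the SKMel28 groups.

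The mitotic kinesins split between the lines. In A375 none of the 8 rose and 5 fell, beside 25% and 26.3% of all genes, and in SKMel28 5 rose and 3 fell, beside 34.2% and 35.8%. KIF11, the motor also called Eg5 that pushes spindle poles apart, had 159.9, 156 and 157 CPM in resistant A375 libraries, against 191, 187 and 185 CPM in sensitive ones, and 119, 113 and 117 CPM in resistant SKMel28 libraries, against 70.8, 75.8 and 69.5 CPM in sensitive ones. It was lower in every resistant A375 library (-0.25 ± 0.04, adjusted p = 2.1e-07) and higher in every resistant SKMel28 library (0.69 ± 0.04, adjusted p = 2.68e-19), where its rise was the largest of the 54. KIF20A, a motor that carries the passenger complex to the central spindle, had 98.6, 100.5 and 99.4 CPM in resistant and 122, 121 and 127 CPM in sensitive A375 libraries, and 132, 127 and 135 CPM in resistant and 99.6, 93.8 and 99.2 CPM in sensitive SKMel28 libraries. Its groups did not overlap and its changes of -0.31 ± 0.04 and 0.43 ± 0.04 had opposite signs (adjusted p = 1.02e-08 and 7.58e-13). KIF15, a motor that can stand in for KIF11 in keeping the spindle bipolar, followed the same pattern (-0.32 ± 0.06 and 0.46 ± 0.06). So did KIF23, a motor of the central spindle (-0.10 ± 0.04 and 0.15 ± 0.04), but its A375 call was lost without any 1 of the resistant libraries or without sensitive replicate 1 or 2 (adjusted p between 0.0612 and 0.421).

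KIF20B, a kinesin of cytokinesis, had 85.2, 81.6 and 86.0 CPM in resistant and 85.2, 87.6 and 88.5 CPM in sensitive A375 libraries, which overlapped, and 78.2, 75.3 and 76.0 CPM in resistant and 48.7, 50.1 and 44.4 CPM in sensitive SKMel28 libraries, which did not. It rose in SKMel28 (0.68 ± 0.05, adjusted p = 1.18e-16) and was at -0.05 ± 0.05 in A375 (adjusted p = 0.403). KIF2C, a kinesin that takes microtubules apart at kinetochores, had 65.5, 68.4 and 65.2 CPM in resistant and 113, 112 and 113 CPM in sensitive A375 libraries, and 89.9, 90.0 and 88.6 CPM in resistant and 113, 113 and 103 CPM in sensitive SKMel28 libraries. Its falls of -0.76 ± 0.04 and -0.29 ± 0.04 passed the test (adjusted p = 1.66e-19 and 7e-08), and the difference of -0.47 ± 0.06 between them did too. KIF4A, a chromokinesin, and KIF14, a kinesin of cytokinesis, fell in SKMel28 (-0.66 ± 0.05 and -0.49 ± 0.05) and were at 0.04 and 0.06 in A375, not called. KIF4A has a near-identical copy, KIF4B, so its counts are uncertain.

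At centromeres and kinetochores, the members of the NDC80 complex, which couples kinetochores to microtubules, gave different results. NDC80 itself had 37.1, 34.7 and 37.0 CPM in resistant and 37.7, 36.7 and 37.2 CPM in sensitive A375 libraries, and 44.6, 44.4 and 47.5 CPM in resistant and 40.9, 45.5 and 40.9 CPM in sensitive SKMel28 libraries. Both pairs of groups overlapped, at -0.04 ± 0.06 and 0.10 ± 0.06 (adjusted p = 0.62 and 0.108). NUF2, its direct partner, was at 0.02 in A375, not called, and fell in SKMel28 (-0.31 ± 0.05). SPC24 had 15.8, 13.9 and 13.9 CPM in resistant and 19.2, 18.1 and 18.8 CPM in sensitive A375 libraries, and 4.67, 4.57 and 5.07 CPM in resistant and 10.3, 9.95 and 10.4 CPM in sensitive SKMel28 libraries. SPC25, its partner in the complex, had 10.3, 11.1 and 11.4 CPM in resistant and 13.9, 12.5 and 12.2 CPM in sensitive A375 libraries, and 23.9, 23.04 and 25.5 CPM in resistant and 51.3, 54.3 and 45.7 CPM in sensitive SKMel28 libraries. Neither gene's groups overlapped in either line. SPC24 fell in A375 (-0.36 ± 0.09) and SKMel28 (-1.10 ± 0.11), as SPC25 did (-0.24 ± 0.08 and -1.06 ± 0.07), and the SKMel28 falls were among the 3 largest there (adjusted p = 2.1e-12 and 1.76e-17). The A375 call for SPC25 was lost without resistant replicate 1 or 2 or sensitive replicate 1 (adjusted p between 0.0578 and 0.140).

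CENPA, the histone H3 variant that marks centromeres, had 28.7, 30.5 and 32.4 CPM in resistant and 29.8, 29.6 and 30.2 CPM in sensitive A375 libraries, and 50.2, 45.7 and 49.9 CPM in resistant and 51.3, 49.9 and 54.8 CPM in sensitive SKMel28 libraries. Its groups overlapped in both lines (0.03 ± 0.06 and -0.10 ± 0.06, adjusted p = 0.696 and 0.119). CENPF, a large kinetochore protein, had 329.8, 320.3 and 332 CPM in resistant and 359, 369 and 358 CPM in sensitive A375 libraries, and 391, 376 and 371 CPM in resistant and 353, 395 and 323 CPM in sensitive SKMel28 libraries. It fell in A375 (-0.15 ± 0.04, adjusted p = 0.00711), although the call was lost without any 1 of the resistant libraries (adjusted p between 0.0781 and 0.137). In SKMel28 sensitive replicate 2 lay above every resistant library, the groups overlapped and the value of 0.09 ± 0.04 missed the threshold (adjusted p = 0.0833). CENPE, a kinesin that moves chromosomes to the spindle equator, was at -0.02 in A375 and -0.01 in SKMel28, called in neither. CENPI, a subunit of the constitutive centromere network and in A375 the lowest of the 54 per exon length, at 1.496 RPKM in resistant and 1.43 RPKM in sensitive A375 cells, fell in SKMel28 (-0.64 ± 0.10) and was at 0.06 ± 0.12 in A375, not called.

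Of the 7 factors of spindle assembly and cytokinesis, 0 were called higher and 2 lower in A375, beside 25% and 26.3% of all genes tested. In SKMel28 4 were called higher and 2 lower, beside 34.2% and 35.8%. TPX2, which activates AURKA on spindle microtubules, had 196, 188 and 192 CPM in resistant A375 libraries, against 289, 290.3 and 282 CPM in sensitive ones, and 218, 216 and 214 CPM in resistant SKMel28 libraries, against 251, 259 and 252 CPM in sensitive ones. All resistant libraries lay below all sensitive ones of their line, with falls of -0.58 ± 0.03 and -0.23 ± 0.03 (adjusted p = 5.74e-19 and 5.66e-08). ANLN, anillin, the scaffold of the contractile ring, also fell in both (-0.19 ± 0.03 and -0.38 ± 0.03). PRC1, which bundles microtubules in the spindle midzone, was at 0.04 ± 0.04 and -0.01 ± 0.03, called in neither line. Another 4 genes rose in SKMel28 with no call in A375. These were ECT2, the exchange factor that starts furrowing (0.39 ± 0.04, with 0.04 in A375), CEP55, a protein of the midbody (0.53 ± 0.04, with 0.01), NUSAP1, a spindle microtubule binder (0.27 ± 0.04, with -0.06), and HMMR, a spindle protein and hyaluronan receptor (0.52 ± 0.04, with -0.09).

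The chromosomal passenger complex, made of aurora B, INCENP, borealin and survivin, corrects wrong attachments of chromosomes. BIRC5, encoding survivin, had 146, 147 and 145 CPM in resistant A375 libraries, against 127, 126 and 125 CPM in sensitive ones, and 151, 149 and 148 CPM in resistant SKMel28 libraries, against 196, 208 and 211 CPM in sensitive ones. It was higher in every resistant A375 library (0.21 ± 0.04, adjusted p = 4.45e-06) and lower in every resistant SKMel28 library (-0.46 ± 0.04, adjusted p = 6.63e-15). Of the 54 genes it was the only 1 called higher in A375 and lower in SKMel28. INCENP, the scaffold, fell in both lines (-0.31 ± 0.04 and -0.42 ± 0.04), as did CDCA8, encoding borealin (-0.58 ± 0.05 and -0.26 ± 0.05). CDCA3, which helps mark the CDK1 inhibitor WEE1 for destruction, rose in SKMel28 (0.18 ± 0.05) and was at 0.09 in A375, not called. CDCA2, a targeting subunit of a phosphatase on anaphase chromosomes, was at 0.07 and 0.11, called in neither.

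All 6 genes of chromosome structure were called lower in A375, mostly by little, beside 26.3% of all genes tested. The calls of TOP2A, NCAPH, SMC2 and SMC4 did not hold when single libraries were left out. TOP2A, the topoisomerase that untangles sister chromatids, had 413, 409 and 427 CPM in resistant and 456, 456 and 446 CPM in sensitive A375 libraries, and 346, 326 and 317 CPM in resistant and 348, 346 and 344 CPM in sensitive SKMel28 libraries. The A375 groups did not overlap (-0.12 ± 0.03, adjusted p = 0.00218, lost without resistant replicate 1 or 2 at adjusted p = 0.0643 and 0.115), and the SKMel28 groups did (-0.07 ± 0.03, adjusted p = 0.07). MKI67, which encodes the Ki-67 protein that coats mitotic chromosomes and is stained to count dividing cells, had 347, 336 and 336 CPM in resistant and 424, 435 and 414 CPM in sensitive A375 libraries. Its values in SKMel28 were 357, 329.9 and 307 CPM in resistant and 245, 252 and 216 CPM in sensitive libraries. MKI67 was lower in all resistant A375 libraries (-0.32 ± 0.05, adjusted p = 5.85e-06) and higher in all resistant SKMel28 libraries (0.48 ± 0.05, adjusted p = 7.38e-09).

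Condensin, the ring that compacts mitotic chromosomes, split in SKMel28. NCAPG, a subunit of condensin I, fell in both lines (-0.29 ± 0.04 and -0.40 ± 0.04), as did SMC2, an ATPase common to both condensins (-0.13 ± 0.04 and -0.39 ± 0.04). NCAPH, another condensin I subunit, and SMC4, the partner of SMC2, fell in A375 (-0.11 ± 0.04 and -0.08 ± 0.03) and rose in SKMel28 (0.16 ± 0.04 and 0.37 ± 0.03). The SMC4 groups overlapped in A375. The A375 calls of SMC2, NCAPH and SMC4 were each lost without any 1 of the resistant libraries. The SMC2 call was also lost without sensitive replicate 2, the NCAPH call without sensitive replicate 1 or 3, and the SMC4 call without sensitive replicate 1 or 2 or SKMel28 resistant replicate 2. Their adjusted p then lay between 0.0634 and 0.148 for SMC2, between 0.052 and 0.222 for NCAPH and between 0.0579 and 0.456 for SMC4. Counting was unstranded by the names of the deposited tables, so reads of overlapping genes on the other strand cannot be told apart, and 33.1% of the exon length of NCAPG is shared with LCORL and 25.6% of that of SMC4 with IFT80 and TRIM59.

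The 2 transcription factors of the list, both drivers of the G2 and mitosis wave, went opposite ways in both lines. MYBL2, encoding B-MYB, had 100.4, 102 and 102 CPM in resistant A375 libraries, against 173, 181 and 179.7 CPM in sensitive ones, and 64.5, 66.4 and 65.6 CPM in resistant SKMel28 libraries, against 103, 109.9 and 115 CPM in sensitive ones. Its groups were far apart in both lines, and the fall of -0.81 ± 0.04 in A375 was the largest of the 54 there (adjusted p = 3.37e-21), beside -0.74 ± 0.04 in SKMel28 (adjusted p = 1.42e-19). The difference between the falls did not pass the test (-0.07 ± 0.06, adjusted p = 0.298). FOXM1, a forkhead factor, had 284, 278 and 279 CPM in resistant and 262, 262 and 259 CPM in sensitive A375 libraries, and 236, 236 and 234 CPM in resistant and 183, 169 and 182 CPM in sensitive SKMel28 libraries. Every resistant library was higher than every sensitive one of its line, by 0.10 ± 0.03 in A375 (adjusted p = 0.00925) and 0.40 ± 0.03 in SKMel28 (adjusted p = 7.94e-14). The split between these factors was the same in both lines, B-MYB down and FOXM1 up. Of the FOXM1 exon length, 15.9% overlaps ITFG2 on the other strand.

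Set side by side, the lines shared 14 falls and 3 rises. Of the 54 genes, 14 were lower in resistant cells of both lines, or 25.9%, against 9.83% of all genes tested. They were MAD2L1, CDC20, UBE2C, ESPL1, KIF2C, SPC24, SPC25, TPX2, ANLN, INCENP, CDCA8, NCAPG, SMC2 and MYBL2. The 3 genes higher in both, BUB3, PTTG1 and FOXM1, made 5.56%, against 8.65% of all genes. Another 10 were lower in A375 and higher in SKMel28, or 18.5% against 9.86%, and these were CCNA2, CDC25B, BUB1B, KIF11, KIF20A, KIF23, KIF15, NCAPH, SMC4 and MKI67. BIRC5 alone had the reverse pattern, 1.85% against 10.2%. PLK1, AURKA, CENPF and TOP2A were called in A375 alone (7.41% against 12.8%), and 14 genes in SKMel28 alone (25.9% against 31.5%). CCNB1, CDK1, CDC25C, CENPA, CENPE, NDC80, PRC1 and CDCA2 were called in neither line (14.8% against 17.2%). In every alternative processing, 12 of the 14 kept their call in both lines, without SPC25 and SMC2, and 5 of the 10 did so, which were CDC25B, KIF11, KIF15, KIF20A and MKI67. Across the 54 genes the changes in the 2 lines, which share no library, had a Pearson correlation of 0.29, against -0.03 across all genes tested. This is a description across genes, which are not independent replicates.

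**Figure D4:**
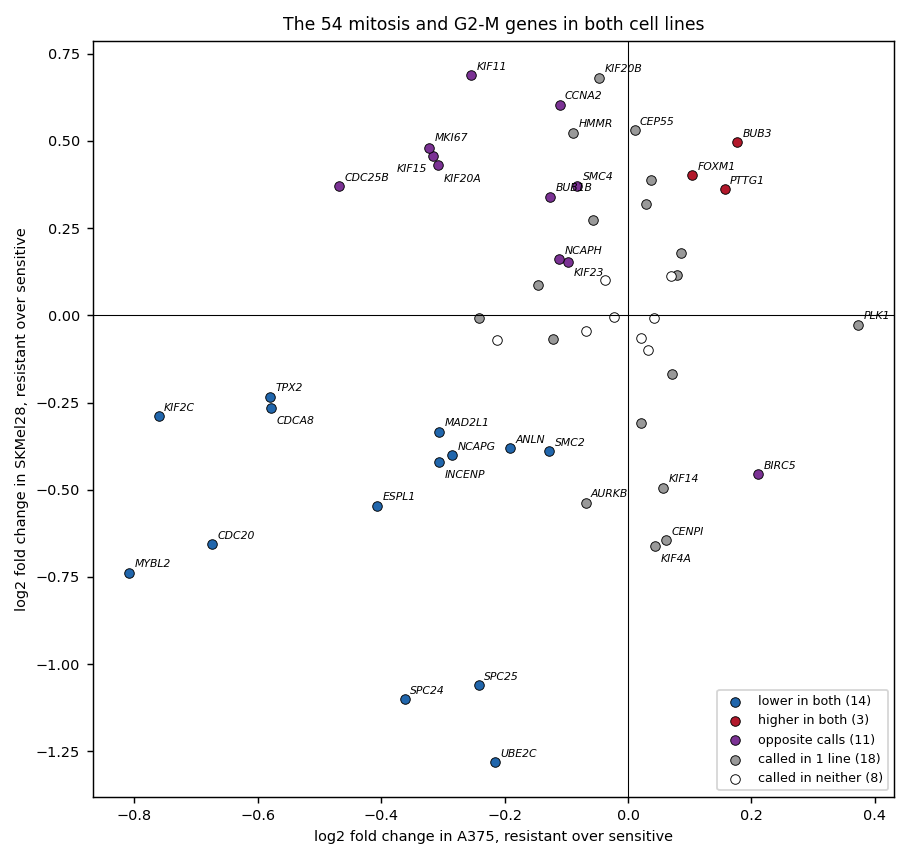
Log2 fold change of each gene in resistant over sensitive cells, in A375 (x) and in SKMel28 (y), 1 point per gene, coloured by the calls in the lines. The lower left holds the 14 genes lower in both, with UBE2C, SPC24 and SPC25 lowest in SKMel28 and MYBL2 and KIF2C lowest in A375, and the upper left the 10 that were lower in A375 and higher in SKMel28.

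The difference between the lines was tested for each gene in the same fit. The change in A375 lay above that in SKMel28 for 13 of the 54 genes and below it for 24, beside 31.4% and 32.4% of all genes tested (63.8% together). Its extremes were UBE2C (1.07 ± 0.06) on 1 side and KIF11 (-0.94 ± 0.06, adjusted p = 4.19e-19), CDC25B (-0.84 ± 0.05, adjusted p = 1.56e-18) and MKI67 (-0.80 ± 0.07, adjusted p = 4.45e-10) on the other.

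The sensitive cells of the lines also differed in these genes. In sensitive A375 over sensitive SKMel28 cells, 25 of the 54 genes were higher and 21 lower, beside 42.4% and 40.5% of all genes (82.9% together). The libraries did not overlap for 25 genes higher and 22 lower, where 83.3% of all genes did not. With scaling by library size alone the split was 33 and 14, and the median of all genes moved to 0.18 on the log2 scale, against 0.03 with TMM. The most extreme differences among the 54 were those of KIF11, with 188 ± 2.98 CPM in sensitive A375 and 72.0 ± 3.32 CPM in sensitive SKMel28 cells (1.38 ± 0.04), and of SPC25, with 12.9 ± 0.890 CPM and 50.4 ± 4.38 CPM (-1.96 ± 0.08, adjusted p = 1.41e-26). CENPI (-1.55 ± 0.11) and BUB1 (-0.98 ± 0.04) were also lower in A375. Per length of exon, CDC20 and UBE2C were the most abundant of the 54 in sensitive A375 cells, at 138 and 129.7 RPKM (CPM divided by exon length in kilobases, group means), and CDC20 led in sensitive SKMel28 cells at 105 RPKM, followed by PTTG1 at 92.2 RPKM. In resistant SKMel28 cells PTTG1 led at 118 RPKM, with CDC20 at 66.4 RPKM and UBE2C at 34.4 RPKM.

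Position on the chromosomes went along with part of these changes. Positions are those of GENCODE release 29 (GRCh38). In A375 the median log2 fold change of all genes lay below -0.25 on chromosome arms 1p (-0.53), 13q (-0.45), 20p (-0.46) and 20q (-0.36), and on no arm above 0.25. The 8 members on these arms, CDC20, KIF2C and CDCA8 on 1p, CDC25B on 20p and AURKA, UBE2C, TPX2 and MYBL2 on 20q, all fell, with a median of -0.58 beside -0.47 for all genes there, of which 71.5% were called lower. Among the other 46 members, 19 were lower and 5 higher (41.3% and 10.9%), beside 21.7% and 27.7% of the genes on those arms. MYBL2 (chr20:43667019-43716496, plus strand) and CDC20 (chr1:43358955-43363203, plus strand) differed from the median of their arms by -0.45 and -0.15, while AURKA (chr20:56369389-56392337, minus strand) and UBE2C (chr20:45812576-45816957, plus strand) lay 0.12 and 0.15 above theirs.

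In SKMel28 the arm 10q had a median of 0.35, 5q of 0.34, 6q of 0.29 and 3q of 0.28. These arms held 14 members, of which 11 rose, none fell and CCNB1, CDK1 and CDC25C did not pass. Of all genes on the arms raised beyond 0.25, which also include 10p and 8q, 56.1% were called higher and 18.6% lower. On 10q, KIF20B (chr10:89701610-89774939, plus strand), KIF11 (chr10:92593286-92655395, plus strand), CEP55 (chr10:93496632-93529092, plus strand), BUB3 (chr10:123154277-123170467, plus strand) and MKI67 (chr10:128096659-128126385, minus strand) rose. Their rises ran from 0.48 to 0.69, while CDK1, also on 10q, was at -0.07. The arms 7p (-0.40), 9q (-0.35) and 19p (-0.25) held ANLN, SMC2 and SPC24, and all 3 fell. Of all genes on the arms lowered beyond 0.25, which also include arms without members, 59.1% were called lower and 16.3% higher. Outside the shifted arms 10 of 37 members rose and 18 fell (27.0% and 48.6%), beside 33.5% and 35.8% of the genes there, and 7 rose and 11 fell of 21 when arms beyond 0.15 were set aside (33.3% and 52.4%, beside 32.7% and 35.5% of the genes there). In SKMel28, UBE2C differed from the median of its arm by -1.124, SPC25 by -1.244 and CCNA2 by 0.45. The Pearson correlation across the 54 genes between a gene's change and the median of its arm was 0.71 in A375 and 0.63 in SKMel28, a description in which the gene itself is part of the median. With the arm median taken off, the median change of the 54 genes was -0.11 in A375 and -0.05 in SKMel28. The part of the arm shifts in the members' changes was not tested.

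**Figure D5:**
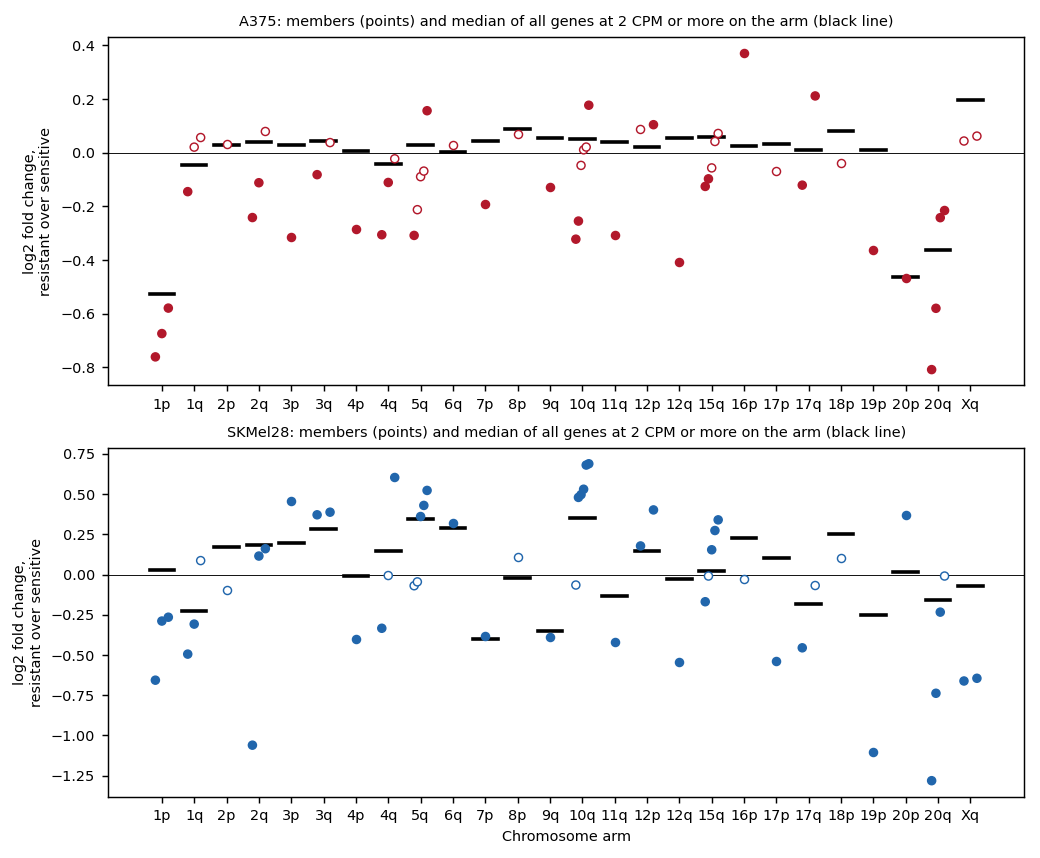
Log2 fold change of the 54 genes in resistant over sensitive cells (points) on each chromosome arm that holds 1 of them, with the median of all genes at 2 CPM or more on that arm as a black line, in A375 (top) and SKMel28 (bottom). Filled points passed an adjusted p of 0.05. In A375 the points on 1p, 20p and 20q lie low with their arms, and in SKMel28 those on 10q lie high, apart from CDK1 at -0.07.

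Other genes of the same stage of the cell cycle, taken from lists of mitosis genes outside the 54, are given next. The counts below stand beside 25% higher and 26.3% lower of all genes tested in A375, and 34.2% and 35.8% in SKMel28. Of 70 such genes, 8 were higher and 34 lower in resistant A375 cells (median -0.12), while SKMel28 had 23 higher and 27 lower (median -0.03), shares near those of all genes. LMNB1, which encodes the nuclear lamina protein lamin B1, went opposite ways, with -0.48 ± 0.04 in A375 and 0.84 ± 0.04 in SKMel28. CKAP2 (-0.44 ± 0.04), a spindle protein, and DEPDC1 (-0.50 ± 0.05) also fell in A375, and CIT (-1.11 ± 0.04), the citron kinase of cytokinesis, and CENPN (-0.79 ± 0.04), a centromere protein, fell in SKMel28. The anaphase-promoting complex, which CDC20 and UBE2C serve, had 6 of its 17 listed subunits and regulators higher and 2 lower in A375. ANAPC13 (0.44 ± 0.04) and ANAPC11 (0.22 ± 0.05) rose and CDC23 (-0.16 ± 0.05) fell there. In SKMel28 6 rose and 7 fell, with ANAPC11 at -1.14 ± 0.06, ANAPC16 at -0.54 ± 0.05 and ANAPC7 at 0.24 ± 0.04.

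Cohesin is the ring that separase opens. Of its 13 genes, 1 was higher and 7 were lower in A375, with PDS5B at -0.60 ± 0.05, RAD21 at -0.23 ± 0.03 and STAG2 at 0.38 ± 0.04, and 10 were higher and 3 lower in SKMel28, with SMC3 at 0.87 ± 0.04, WAPL at 0.55 ± 0.04 and RAD21 at 0.48 ± 0.03. Of 11 genes of the MuvB and DREAM complexes, which are known to hold back or drive transcription of many cell cycle genes, A375 had 2 higher and 3 lower and SKMel28 had 5 of each. RBBP4, a histone-binding subunit, was at -0.74 ± 0.04 in A375 and 0.99 ± 0.04 in SKMel28, the A375 falls of TFDP1 and RBL1 were -0.41 ± 0.03 and -0.32 ± 0.05, and in SKMel28 E2F4 fell (-0.96 ± 0.04) and TFDP2 rose (0.60 ± 0.05).

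Among 12 genes that hold back G2 and mitosis, of which 11 were tested, A375 had 4 higher and 4 lower, and SKMel28 had 6 higher and 3 lower. This list leaves out WEE1, the CDK1 inhibitor named above, and the kinase PKMYT1, which were counted among the 70 other mitosis genes. Both fell in both lines, WEE1 by -0.37 ± 0.06 in A375 and -0.48 ± 0.06 in SKMel28 and PKMYT1 by -0.25 ± 0.05 and -0.34 ± 0.05. CDKN1A, encoding the CDK inhibitor p21, rose in A375 to 365 ± 1.63 CPM in resistant against 180.1 ± 4.81 CPM in sensitive cells (SD, n = 3, 1.02 ± 0.04). In SKMel28 CDKN1A fell, to a mean of 21.8 CPM in resistant against 27.2 CPM in sensitive cells (-0.32 ± 0.05). CHEK1, a checkpoint kinase, rose in A375 (0.37 ± 0.05) and in SKMel28 (0.36 ± 0.05), SFN, the 14-3-3 sigma gene, fell in A375 (-0.65 ± 0.10), and GADD45A fell in SKMel28 (-0.86 ± 0.05). Of 32 genes of DNA replication and the G1-S step, A375 had 3 higher and 20 lower (median -0.18), and SKMel28 had 16 higher and 12 lower (median 0.06). E2F2 (-1.39 ± 0.08), E2F1 (-0.75 ± 0.05) and PCNA (-0.57 ± 0.04) fell in A375, and MCM2 (1.06 ± 0.04) and PCNA (0.61 ± 0.04) rose in SKMel28. PCNA, the sliding clamp of DNA polymerase, thus went opposite ways in the lines, as MKI67, KIF11 and CCNA2 did. In A375, DEPDC1, RBBP4, SFN and E2F2 (1p), CKAP2, PDS5B and TFDP1 (13q), PCNA (20p) and RBL1 and E2F1 (20q) fell on lowered arms. In SKMel28, LMNB1 (5q), MCM2 and TFDP2 (3q), SMC3 and WAPL (10q) and RAD21 (8q) rose on raised arms. CENPN and E2F4 (16q) fell there on a lowered arm, and ANAPC16 fell on the raised arm 10q. Other changes named from these lists lie on arms not shifted beyond 0.25. The part of the arm shifts in the changes of these genes was not tested.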

How the data were processed

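RNA-seq of 12 libraries was analysed from the deposited counts, whole reads per gene symbol. Per the submitters' processing notes, GRCh38.p12, HISAT2 and StringTie were used, while the names of the deposited tables point to STAR, untrimmed reads, hg38 and unstranded counting, so the aligner is not settled. Reads not assigned to a gene, on 5 summary lines, made 15.1% to 19.5% of each library and were left out. In SKMel28 they made 15.1% to 15.6% in resistant and 17.1% to 19.0% in sensitive libraries, and in A375 17.85% to 18.4% and 18.8% to 19.5%. Reads aligned to more than 1 place made 2.09% to 2.44% in resistant and 4.00% to 4.47% in sensitive SKMel28 libraries, and 4.57% to 4.79% and 4.37% to 5.03% in A375. The part of these differences in the results was not tested. The libraries held 28496518 to 37721363 gene reads.

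Genes were filtered with filterByExpr (15506 kept), scaled by TMM and fitted in edgeR 4.0.16 (limma 3.58.1, R 4.3.3) with 4 group means and the robust quasi-likelihood test (8 residual degrees of freedom, biological coefficient of variation 4.20%). The tests are two-sided, p-values are adjusted by Benjamini-Hochberg over all genes tested with a threshold of 0.05, and the SE is the fold change over the square root of F. DESeq2 1.42.0 served as an alternative, as did other scalings, no filter, a replicate block, each comparison fitted alone and each library left out. The fits were tested on simulated data. Libraries of a group differed beyond sampling noise in every pair.

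The median of a chromosome arm was taken over its genes that reached 2 CPM, if it had 20 of them, and a median beyond 0.25 (log2) was called a shift. Promoter sequences are from RefSeq. Every member is named with its change in each line. Values in every library are given for 21 core genes and the 3 largest called rises and falls in each line, and up to 3 called genes with the smallest adjusted p are named from each other list. Some genes of these lists are not reported here. ESPL1 and CDC25B have group means in addition, and WEE1 and PKMYT1 are named in addition from the other mitosis genes. The members and lists were chosen with earlier results of these data known.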

Additional observations from a re-analysis of the deposited data

Results flagged for a closer look

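The values here are the log2 fold change of resistant over sensitive cells in A375 minus that in SKMel28, from 3 libraries per group, and they are listed because the difference itself passed its test (edgeR interaction, adjusted p under 0.05). This held for 37 of the 54 genes, and for 63.8% of all genes tested.

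The change was higher in A375 for 13 genes. The differences above 0.5 were those of UBE2C (1.07), SPC25 (0.82), SPC24 (0.74), CENPI (0.71), KIF4A (0.70), BIRC5 (0.67) and KIF14 (0.55). Smaller ones were found for AURKB (0.47), PLK1 (0.40), NUF2 (0.33), SMC2 (0.26), CCNB2 (0.24) and ANLN (0.19).

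The change was lower in A375 for 24 genes. The differences beyond -0.5 were those of KIF11 (-0.94), CDC25B (-0.84), MKI67 (-0.80), KIF15 (-0.77), KIF20A (-0.74), KIF20B (-0.73), CCNA2 (-0.71), HMMR (-0.61) and CEP55 (-0.52). Smaller ones were found for BUB1B (-0.47), KIF2C (-0.47), SMC4 (-0.45), TPX2 (-0.35), ECT2 (-0.35), NUSAP1 (-0.33), BUB3 (-0.32), CDCA8 (-0.31), FOXM1 (-0.30), TTK (-0.29), NCAPH (-0.27), KIF23 (-0.25), AURKA (-0.23), CENPF (-0.23) and PTTG1 (-0.20). The kinesins KIF11, KIF15, KIF20A and KIF20B stood among the largest of these, and KIF4A and KIF14 on the opposite side.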

How the results depend on the processing

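Of 216 gene results (54 genes in 4 comparisons), 45 crossed the threshold under at least 1 of 19 alternatives. Of 4050 values, 3909 kept the call and direction of the main fit or, where the main fit gave no call, stayed uncalled in either direction. In A375, 18 of the 27 falls and 5 of 5 rises held under every alternative, and in SKMel28 20 of 21 falls and 20 of 21 rises. The A375 median of the 54 genes, -0.09, was -0.0579 with DESeq2 size factors in edgeR, -0.0634 with library size alone, -0.058 with DESeq2, -0.0628 with no filter and -0.114 with TMM factors from genes outside the shifted arms. For all genes of each fit the median was 0.0289, 0.0234, 0, 0 and -0.0199 in the same order, against 0 in the main fit. The fits with DESeq2 and with no filter also held genes of low count. The median of the 54 genes ran from -0.114 to -0.053 with 1 library left out, and the number of lower genes from 18, without resistant replicate 1 or 2, to 28. Scaling by library size alone gave medians of -0.0526 in SKMel28, -0.0164 for the difference between lines and 0.205 between the sensitive cells, and turned the sign between sensitive A375 and sensitive SKMel28 cells for CDK1 (0.0421), AURKB (0.107), KIF23 (0.0209) and SMC4 (0.00387). The medians of all genes were then -0.0463, 0.0591 and 0.181. With 1 library left out the medians of the 54 genes ran from -0.0489 to -0.0041 in SKMel28, from -0.107 to -0.0485 for the difference and from 0.0476 to 0.0907 between the sensitive cells. In SKMel28, members outside arms shifted beyond 0.25, a count added after seeing the data, made 10 rises and 18 falls, and outside arms shifted beyond 0.15 made 7 rises and 11 falls. In the last 150 bases of the windows, which end 50 bases after the start, CCAAT stood in 51.7% of the members' windows and 21.3% of all windows. CHR letters stood there in 60.3% and 7.37%, and both in 41.4% and 1.86%. The cause of these shifts was not tested.

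Replicate numbers are shared between groups, but the correlation of deviations of same-numbered libraries was -0.00 to 0.03 in A375 and 0.01 to 0.05 in SKMel28, so the numbers were not taken to pair them. With a replicate block, 5 genes were higher and 27 lower in A375 (median -0.09), 22 and 21 in SKMel28 (median -0.02), 14 and 24 for the difference, and 25 and 19 between the sensitive cells (median 0.0906). Changes near 0.1 on the log2 scale lie at the limit of what 3 libraries per group resolve here.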
